A study of Homo sapiens with 6 samples.

Results

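The genes that build ribosomes in the nucleolus were examined in DU145 cells, an established human prostate cancer line, with and without forced expression of the circular RNA circCSPP1. The group holds 45 genes picked by name for their part in making ribosomes, out of the 19727 genes of the expression table, and all 45 were found in it. The control cells (NC) carried the lentivirus-NC vector and the overexpressing cells (OE) carried lentivirus-circCSPP1, so both groups had taken up a lentivirus and, by the study's methods, both were kept under puromycin to give stable lines. Each group had 3 libraries of polyadenylated RNA, labelled replicates 1 to 3, and no other agent, time or genotype differed by the labels. Nothing in the labels says whether replicates came from separate infections, lines or cultures, so the p-values below measure the spread between these libraries, which may be technical.

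A ribosome is assembled in the nucleolus, where RNA polymerase I copies the ribosomal RNA genes into a long precursor. Small nucleolar ribonucleoproteins, or snoRNPs, modify that precursor, and large sets of assembly factors cut and fold it into a small (40S) and a large (60S) subunit that are finished in the cytoplasm. Many of these genes carry binding sites for the transcription factor MYC and are known to be high in fast-growing tumor cells.

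The deposited values are FPKM, fragment counts scaled to transcript length and to the size of the library. They are relative values, so in these bulk samples fewer expressing cells and less RNA per cell cannot be told apart. The depth read from the low values in units of 1000000 fragments, was 29.1 to 36.7 in NC and 28.8 to 34.9 in OE. CSPP1, the gene from which the circular RNA comes, stood at 9.11, 10.1 and 9.44 FPKM in NC and 14.5, 22.8 and 21.4 FPKM in OE, and the circle and the linear mRNA cannot be told apart in this value. The epithelial markers EPCAM, CDH1, KRT8, KRT18 and KRT19 were all present, and all 5 were called lower in OE, with a summed level of 2271 to 2361 FPKM in NC and 1046 to 1278 FPKM in OE. Of the markers of secretory prostate cells, KLK2 and KLK3 were at 0 in all 6 libraries and TMPRSS2 did not exceed 0.07 FPKM. The 4 leukocyte markers summed to 46.2 to 52.1 FPKM in NC and 36.6 to 51.7 FPKM in OE, nearly all of it CD68, while PTPRC did not exceed 0.08 FPKM and CD3E was at 0. The 3 endothelial markers summed to at most 0.62 FPKM. The 4 fibroblast markers summed to 2.85 to 4.34 FPKM in NC and 1.30 to 1.97 FPKM in OE, with COL1A1 called lower in OE. The part of these marker changes in the results on ribosome assembly genes was not tested.

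The first question was how many of the assembly genes differed between the lines. Differences were tested with limma on log2(FPKM + 1), together with every gene whose mean was at least 1 FPKM, and a gene was called at an adjusted p under 0.05. All 45 genes entered the test. Of these, 10 were called higher in OE, which is 22.2%, whereas 4.69% of the 12322 tested genes were called higher. None was called lower by limma at that threshold, and 6.66% of the tested genes were. An unadjusted limma p under 0.05 was found in 14 of the 45. Such values were common among all tested genes: RPS16, with an unadjusted p of 0.0496, had an adjusted p of 0.18. Counts at an unadjusted p are therefore not read as an excess here or below. The median log2 fold change of the 45 was 0.19, beside -0.03 for all tested genes, and 40 of the 45 estimates were above 0, beside 46.0% of all tested genes. The changes were small: the 10 called genes ranged from 0.28 to 0.74 on the log2 scale and the 35 others from -0.13 to 0.40. In 17 genes every OE library lay above every NC library, which is 37.8%, beside 16.0% of all tested genes, and in none did every OE library lie below, beside 20.5%. An exact permutation test of a single gene, 3 against 3, cannot give a p below 0.10.

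The count of 10 depended on the libraries used. Without OE replicate 1 it was 20 (13.2% of all tested genes were then called higher), without OE replicate 2 it was 6 (4.06%) and without OE replicate 3 it was 3 (1.58%). Without NC replicate 1 it was 1 (1.18%), without NC replicate 2 it was 1 (1.24%) and without NC replicate 3 it was 2 (1.34%). The 10 called genes kept a positive fold change in every one of the alternatives run, with values from 0.25 to 0.83.

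**Figure D1:**
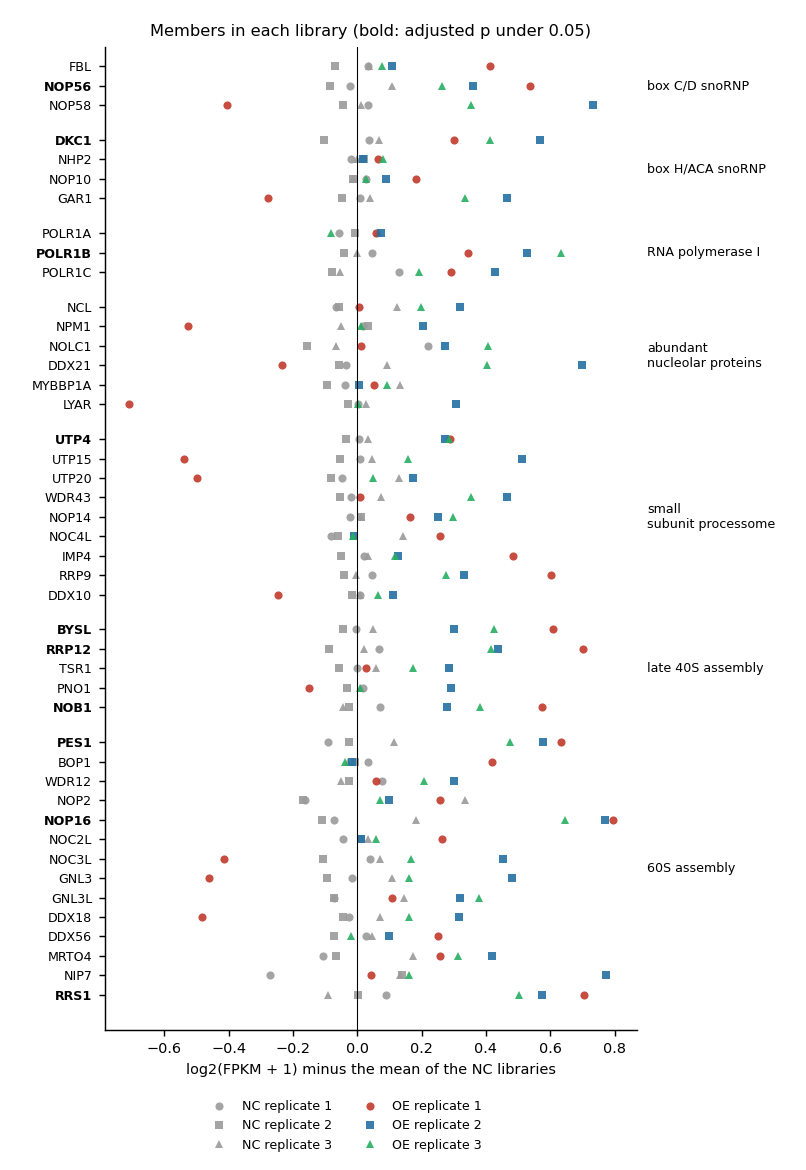
Each row is 1 gene, grouped by role, and each point is 1 library, as log2(FPKM + 1) minus the mean of the 3 NC libraries (grey, NC; red, blue and green, OE replicates 1, 2 and 3); genes in bold had an adjusted p under 0.05, and IMP3 is left out because its spread exceeds the axis. The NC points cluster at 0, OE replicates 2 and 3 lie mostly to the right, and OE replicate 1 lies far to the right in some genes and to the left in others.

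**Figure D2:**
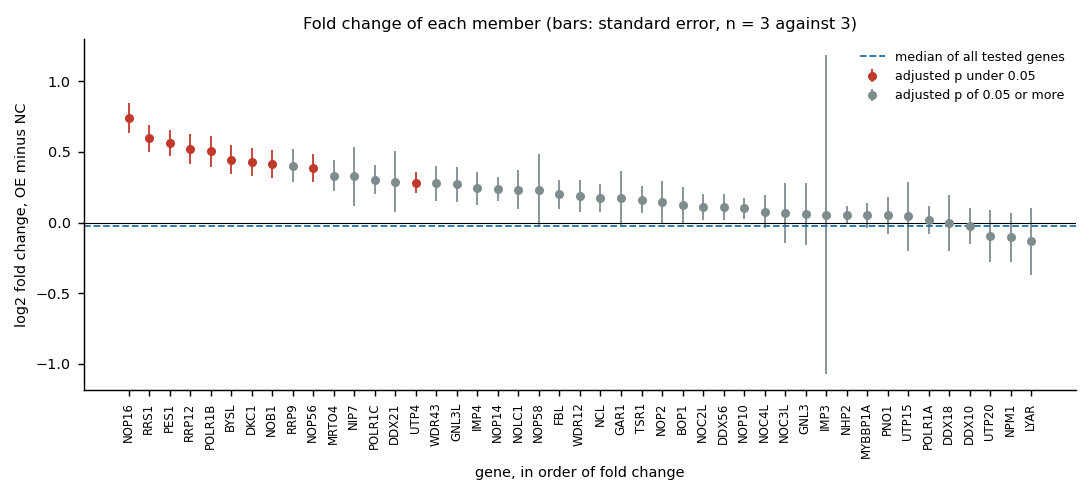
The log2 fold change of OE over NC is shown for each of the 45 genes in order of size, with its standard error (n = 3 against 3); red points had an adjusted p under 0.05 and the dashed line is the median of all tested genes, -0.03. The called genes run from NOP16 at 0.74 to UTP4 at 0.28, and 40 of the 45 points lie above 0.

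Promoter sequences were searched for short motifs. The genes were listed as nucleolar assembly genes, many of them known to respond to MYC, so the share with a MYC site is not independent of that choice. In the RefSeq promoters of GRCh38.p14, from 250 bases before to 50 bases after the start, 39 of the 45 genes had an entry. The letters CACGTG, the E-box that MYC with MAX can bind and which reads the same on both strands, were found in 19 of the 39 (48.7%) and in 1242 of the 9725 tested genes with an entry (12.8%). Among the genes called higher 3 of 8 held it, and among those not called 16 of 31. A match began at or after the start site in 13 genes, lay wholly before it in 6 (IMP4 had both), and in RRP9 spanned it. The sites of the 3 called genes and of 3 abundant genes that were not called are shown as examples from both sides of the threshold, with no test of a difference between them; the capitals mark the E-box, each is written in the direction of its gene, and 30 bases are given.
BYSL, chr6:41921515-41921544, + strand, first base 29 of the transcript: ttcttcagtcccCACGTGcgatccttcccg
PES1, chr22:30591880-30591909, - strand, first base 14 of the transcript: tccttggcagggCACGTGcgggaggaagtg
UTP4, chr16:69132621-69132650, + strand, 16 bases before the start: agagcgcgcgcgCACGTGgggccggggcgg
FBL, chr19:39846356-39846385, - strand, first base 7 of the transcript: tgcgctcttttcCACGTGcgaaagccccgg
NOP10, chr15:34343130-34343159, - strand, 11 bases before the start: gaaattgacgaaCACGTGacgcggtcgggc
GNL3, chr3:52686026-52686055, + strand, first base 7 of the transcript: ggcttcagttcaCACGTGgcgccagcggag
NOP10 and IMP4 held 2 matches each. The letters CCGGAA or TTCCGG, the core bound by ETS-family factors, were found in 21 of the 39 (53.8%, beside 35.8% of the tested genes), and 12 genes held both motifs. GCATGCGC or its complement GCGCATGC, the core of the NRF1 site, was found in 4 of the 39 (10.3%, beside 6.55%). A match describes letters in this window and is not evidence of binding in these cells.

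In the box C/D snoRNP, which places methyl groups on ribosomal RNA, 1 of 3 genes was called higher. NOP56, a scaffold protein of the particle (chr20:2652145-2658393, + strand), measured 91.6, 87.6 and 100.3 FPKM in NC and 135.3, 119.8 and 111.9 FPKM in OE. Every OE value was above every NC value, and OE replicate 1 was the highest. The log2 fold change was 0.39 ± 0.10 (SE, n = 3 against 3, adjusted p = 0.046), a fold of 1.31. FBL, the methyltransferase itself and the gene with the highest mean level of the particle, measured 225.8, 209.9 and 226.1 FPKM in NC and 293.6, 237.7 and 232.8 FPKM in OE. The groups did not overlap, but OE replicate 1 stood apart from the other two and the log2 fold change of 0.20 ± 0.10 did not pass (adjusted p = 0.26). NOP58, the other scaffold protein, measured 28.8, 27.2 and 28.3 FPKM in NC and 20.9, 47.3 and 36.2 FPKM in OE. OE replicate 1 was the lowest and OE replicate 2 the highest of the 6 libraries, with a log2 fold change of 0.23 ± 0.26 (adjusted p = 0.62).

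In the box H/ACA snoRNP, which converts uridine to pseudouridine, 1 of 4 genes was called higher. DKC1, the pseudouridine synthase (chrX:154762742-154777689, + strand), measured 66.8, 60.5 and 68.3 FPKM in NC and 80.4, 97.0 and 87.0 FPKM in OE. All OE values were above the NC values, and the log2 fold change was 0.43 ± 0.10 (adjusted p = 0.034). NOP10, a small core protein with the highest mean level of the particle, measured 185.35, 180.2 and 180.4 FPKM in NC and 206.6, 193.7 and 185.38 FPKM in OE. Its lowest OE value was barely above its highest NC value, and the log2 fold change of 0.10 ± 0.07 did not pass (adjusted p = 0.42). NHP2, which binds the guide RNA, had a log2 fold change of 0.05 and GAR1, which helps release the product, one of 0.17, and the groups overlapped in both.

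Of the 3 subunits of RNA polymerase I, 1 was called higher. POLR1B, which with POLR1A forms the catalytic core (chr2:112541915-112577150, + strand), measured 12.8, 11.95 and 12.3 FPKM in NC and 15.9, 18.2 and 19.7 FPKM in OE. The groups were well apart and OE replicate 1 was the lowest of the OE libraries. The log2 fold change was 0.50 ± 0.11 (adjusted p = 0.029), a fold of 1.42. POLR1A, its catalytic partner, had almost the same level in NC, a mean of 12.3 ± 0.57 FPKM (SD, n = 3), and 12.5 ± 0.77 FPKM (SD, n = 3) in OE. Its log2 fold change was 0.02 ± 0.10 (adjusted p = 0.94). POLR1C, an assembly subunit shared with RNA polymerase III, measured 31.7, 27.3 and 27.8 FPKM in NC and 35.5, 39.1 and 33.1 FPKM in OE. Here too the groups did not overlap, but the log2 fold change of 0.30 ± 0.11 did not pass (adjusted p = 0.11).

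None of the 6 genes listed as abundant nucleolar proteins was called by limma, no unadjusted p among them was under 0.05, and in all 6 the groups overlapped. The name is that of the list and not a ranking by FPKM. Their mean levels ran from 32.8 FPKM in LYAR to 447.4 FPKM in NCL, beside a median of 43.2 FPKM over the 45 genes. NCL (nucleolin, a histone and RNA chaperone) measured 400.4, 402.8 and 456.2 FPKM in NC and 420.7, 523.2 and 480.8 FPKM in OE. OE replicate 1 fell among the NC values, and the log2 fold change was 0.17 ± 0.10 (adjusted p = 0.30). NPM1 (nucleophosmin, a nucleolar chaperone) measured 403.6, 408.4 and 385.2 FPKM in NC and 276.6, 459.8 and 402.2 FPKM in OE. The OE values reached below and above all NC values, and the log2 fold change was -0.10 ± 0.17 (adjusted p = 0.74). NPM1 has 45 pseudogenes that carry its name in GENCODE, which can share its reads, so its level is uncertain. DDX21, an RNA helicase of the nucleolus, measured 44.9, 44.2 and 49.1 FPKM in NC and 39.0, 75.2 and 61.1 FPKM in OE. OE replicate 1 was again the lowest of all libraries and the other two OE libraries were above all NC libraries, with a log2 fold change of 0.29 ± 0.22 (adjusted p = 0.43). The log2 fold change was 0.23 in NOLC1, a chaperone of snoRNPs, 0.05 in MYBBP1A, a nucleolar regulator of transcription, and -0.13 in LYAR, a nucleolar zinc finger protein.

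**Figure D3:**
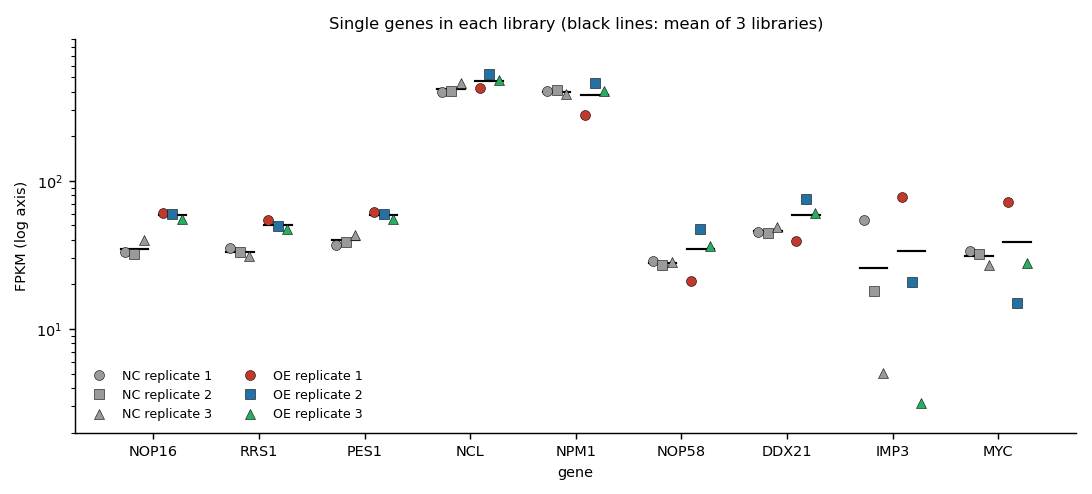
FPKM on a log axis is shown for 8 of the assembly genes and for MYC, with 1 point per library (grey, NC; red, blue and green, OE replicates 1, 2 and 3) and a black line at each group's mean. NOP16, RRS1 and PES1 separate the groups, OE replicate 1 is the lowest library in NPM1, NOP58 and DDX21, and IMP3 spreads from 3.17 to 77.4 FPKM with its groups interleaved.

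The small subunit processome folds the first part of the precursor around the U3 snoRNA, and 1 of its 10 genes was called higher. UTP4, a subunit that joins the precursor while it is being transcribed (chr16:69131291-69231130, + strand), measured 59.8, 58.1 and 61.0 FPKM in NC and 73.0, 72.2 and 72.9 FPKM in OE. These were the tightest OE values of the 45 genes, all above NC, and the log2 fold change was 0.28 ± 0.07, at the edge of the threshold (adjusted p = 0.0499). WDR43, a partner of UTP4 and the gene of the processome with the highest mean level, measured 80.8, 78.8 and 86.3 FPKM in NC and 82.4, 113.4 and 104.9 FPKM in OE. OE replicate 1 lay among the NC values and the log2 fold change of 0.28 ± 0.13 did not pass (adjusted p = 0.20). RRP9, a protein of the U3 snoRNP, had the lowest adjusted p of the 35 genes not called. Its log2 fold change was 0.40 ± 0.11 (adjusted p = 0.063), with all OE values above NC. In NOP14, a scaffold protein, the value was 0.24 and in IMP4, a U3 binding protein, 0.24, also with no overlap between groups. The log2 fold changes were 0.08 in NOC4L, the partner of NOP14, 0.04 in UTP15, a partner of UTP4, -0.09 in UTP20, a scaffold protein, and -0.02 in DDX10, a helicase. IMP3, the partner of IMP4, is described with the spread between libraries.

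Late 40S assembly had 3 of its 5 genes called higher. RRP12, which takes part in the export of pre-ribosomes (chr10:97356358-97426076, - strand), measured 37.0, 33.1 and 35.8 FPKM in NC and 58.0, 48.2 and 47.3 FPKM in OE. The log2 fold change was 0.52 ± 0.11 (adjusted p = 0.024), a fold of 1.43. BYSL, or bystin, a factor of pre-40S particles in nucleus and cytoplasm (chr6:41921188-41933046, + strand), measured 39.9, 38.7 and 41.4 FPKM in NC and 61.5, 49.4 and 53.9 FPKM in OE. Its log2 fold change was 0.44 ± 0.10 (adjusted p = 0.033). NOB1, the nuclease that makes the final cut at the end of the small subunit RNA (chr16:69741867-69754940, - strand), measured 91.5, 85.3 and 84.3 FPKM in NC and 130.1, 105.7 and 113.7 FPKM in OE. It had the highest mean level of the 5, and its log2 fold change was 0.41 ± 0.10 (adjusted p = 0.036). In each of the 3 genes the groups did not overlap and OE replicate 1 was the highest library. In PNO1, the partner of NOB1, the log2 fold change was 0.05 ± 0.13 (adjusted p = 0.85). In TSR1, a GTPase-like factor, it was 0.16 ± 0.09 (adjusted p = 0.31), and the groups overlapped in both genes.

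Among the 14 genes of 60S assembly 3 were called higher, and these had the 3 largest fold changes of the 45 genes. NOP16, a factor of early pre-60S particles (chr5:176383938-176388975, - strand), measured 33.0, 32.1 and 39.6 FPKM in NC and 61.0, 60.03 and 54.9 FPKM in OE. The lowest OE value was well above the highest NC value, and the log2 fold change was 0.74 ± 0.11 (adjusted p = 0.0079), a fold of 1.67. RRS1, which helps bring the 5S RNA into the large subunit (chr8:66429028-66430733, + strand), measured 35.3, 33.1 and 31.0 FPKM in NC and 54.6, 49.8 and 47.3 FPKM in OE. The groups were apart here too, with a log2 fold change of 0.59 ± 0.10 (adjusted p = 0.011). RRS1 lies on the chromosome of CSPP1, 631.7 kb before it. PES1, or pescadillo (chr22:30576625-30607083, - strand), measured 37.1, 38.9 and 42.9 FPKM in NC and 61.9, 59.6 and 55.4 FPKM in OE. The 3 OE libraries were close to each other and above NC, with a log2 fold change of 0.56 ± 0.09 (adjusted p = 0.012).

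PES1 works in a complex with BOP1 and WDR12, and these were not called. BOP1 measured 66.6, 64.7 and 63.7 FPKM in NC and 87.3, 64.3 and 63.2 FPKM in OE. Only OE replicate 1 was above NC, and the log2 fold change was 0.12 ± 0.13 (adjusted p = 0.59). In WDR12 the difference was 0.19 ± 0.11 on the log2 scale (adjusted p = 0.32). DDX56, a helicase with the highest mean level of the 14, measured 95.4, 88.8 and 96.5 FPKM in NC and 111.4, 100.1 and 92.1 FPKM in OE. The groups overlapped, with a log2 fold change of 0.11 ± 0.09 (adjusted p = 0.49). MRTO4, which holds the place of the stalk protein RPLP0 in the immature subunit, was the other gene of the 14 with no overlap, with a log2 fold change of 0.33 ± 0.11 (adjusted p = 0.094). The log2 fold change was 0.33 in NIP7, an RNA binding factor, 0.27 in GNL3L and 0.06 in GNL3, nucleolar GTPases, 0.14 in NOP2, a methyltransferase, 0.11 in NOC2L and 0.07 in NOC3L, partners in pre-60S transport, and -0.002 in DDX18, a helicase.

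Some values may rest on shared positions. Of the 45 genes, 20 overlap a gene on the other strand in GENCODE release 29, among them the called genes UTP4, RRP12, NOB1, PES1 and NOP16. These overlaps are of whole genes, introns included, and shared exons were not looked for. Whether the counting used strand is not given in the sources used here, so reads from a stretch that both genes share may not be told apart. In all, 7 of the genes overlap 25 snoRNA genes on the same strand, and NOP56 and DKC1 are the 2 called genes among the 7.

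The other genes of the pathway were taken as a list of 139. It was made of further factors of polymerase I, snoRNP assembly, the processome, late 40S and 60S assembly, cytoplasmic maturation and the RNA-degrading exosome. Of these, 11 were called higher (7.91%, beside the 4.69% above) and none lower by limma. In either direction, 31 had an unadjusted p under 0.05, a count given without the share of all tested genes and not read as an excess. The median log2 fold change of the list was 0.12. The 4 largest rises past the threshold were in WDR18 (0.56 ± 0.13, adjusted p = 0.037) and WDR74 (0.52 ± 0.11, adjusted p = 0.022), both of pre-60S assembly, PDCD11 (0.45 ± 0.09, adjusted p = 0.021), a processome scaffold, and NLE1 (0.42 ± 0.11, adjusted p = 0.0499), again of pre-60S assembly. By role, 6 of 46 genes of 60S assembly, 3 of 39 of the processome, 1 of 13 of polymerase I and its factors and 1 of 9 of snoRNP assembly were called. None of the 9 late 40S, 7 cytoplasmic and 16 exosome genes was called by limma. At an unadjusted p under 0.05 there were 0, 1 and 4, likewise without such a share. The count of 11 fell to 0 without any one of the NC libraries and without OE replicate 3, where 1.18% to 1.58% of all tested genes were called higher, so the list was then below that share. It was 8 without OE replicate 2 (5.76%, beside 4.06%) and 53 without OE replicate 1 (38.1%, beside 13.2%).

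The 79 cytosolic ribosomal protein genes, the products that the assembly factors put together, had 9 genes called higher (11.4%, beside 4.69% of all tested genes) and none called lower by limma. At an unadjusted p under 0.05 there were 30, again without the share of all tested genes and not read as an excess. Their median log2 fold change was 0.14. The 9 were RPS4X, RPS12, RPS14, RPS19, RPS23, RPL10, RPL10A, RPL13A and RPL23, with log2 fold changes from 0.27 in RPS19 to 0.39 in RPS23. These genes have many processed copies in the genome, so single values are uncertain. The count was 31 without OE replicate 1 (39.2%, beside 13.2%) and 12 without OE replicate 2 (15.2%, beside 4.06%). It was 1 without OE replicate 3 (1.27%, beside 1.58%) and 0 without any one of the NC libraries (beside 1.18% to 1.34%), so the share was then below that of all tested genes.

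MYC, the transcription factor known to drive many of these genes, measured 33.6, 32.1 and 26.9 FPKM in NC and 72.4, 15.0 and 28.04 FPKM in OE. OE replicate 1 had the highest and OE replicate 2 the lowest MYC of the 6 libraries, and the log2 fold change of 0.03 ± 0.48 did not pass (adjusted p = 0.98). Of the 45 genes, 43 were above the NC mean in OE replicate 2, 40 in OE replicate 3 and 33 in OE replicate 1. Their median difference from the NC mean was 0.30, 0.17 and 0.16 on the log2 scale in OE replicates 2, 3 and 1. The counts above the NC mean are given without a share of all tested genes. In the 23 genes with a GC content at or above the median of all tested genes the median difference was 0.25, 0.17 and 0.41 in the same order. For all 6153 tested genes at or above that GC content it was -0.10, -0.04 and 0.11. In the 22 genes below it the values were 0.37, 0.18 and -0.19, beside 0.12, 0.02 and -0.27 for all 6152 such tested genes. OE replicate 1 was the highest of the 6 libraries in 8 of the 10 called genes. Whether these levels follow MYC was not tested. MAX, the partner of MYC, measured 37.0, 38.3 and 34.0 FPKM in NC and 41.5, 46.4 and 47.6 FPKM in OE. Its groups did not overlap, and its log2 fold change was 0.30 ± 0.10 (adjusted p = 0.084).

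The OE libraries differed from each other more than the NC libraries did. The standard deviation of log2(FPKM + 1) among the OE libraries exceeded that among the NC libraries in 39 of the 45 genes, beside 78.1% of all tested genes, with medians of 0.16 in OE and 0.06 in NC over the 45 and 0.19 and 0.08 over all tested genes. OE replicate 1 was the lowest of the OE libraries in 23 genes, the highest in 18 and in between in 4. It was the lowest of all 6 libraries in 12 genes, all of them not called, and the highest of all 6 in 17, of which 8 were called. These counts are given without the share of all tested genes and are not read as particular to the 45.

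This spread went with base composition. Across the 45 genes, the departure of OE replicate 1 from the mean of the other two OE libraries had a Spearman correlation of 0.88 with the GC content of the transcript, and across the 12305 tested genes with a transcript it was 0.78. For OE replicate 2 the values were -0.82 and -0.73, for OE replicate 3 -0.66 and -0.48, and in the NC libraries all lay between -0.06 and 0.10. These are descriptions across genes that share the same libraries. Over the 45 genes the median departure of OE replicate 1 was -0.11, with quartiles of -0.40 and 0.21. The genes furthest down were rich in A and T: NOP58, with 41.3% GC, stood at 0.52 times the mean of the other two, and UTP15, with 38.7% GC, at 0.55 times. BOP1, with 65.2% GC, stood at 1.36 times.

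**Figure D4:**
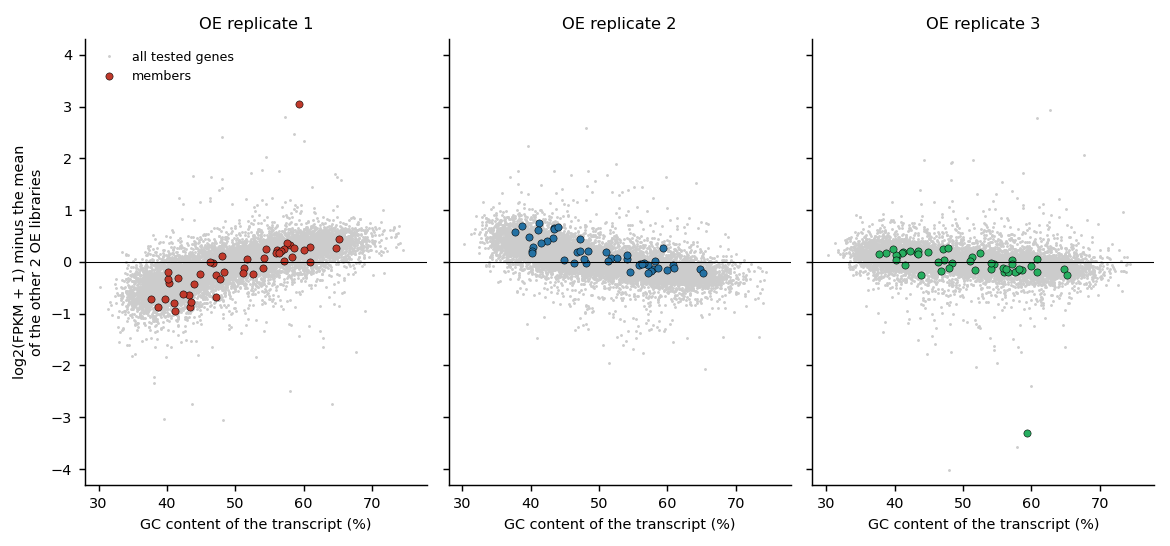
For each OE library, the difference of log2(FPKM + 1) from the mean of the other 2 OE libraries is plotted against the GC content of the longest coding transcript, with all tested genes in grey and the 45 genes in color; 1 gene of the grey set lies above the axis in OE replicate 2, and the single colored points at 3.04 and -3.30 are IMP3. The points rise with GC content in OE replicate 1 (Spearman 0.88 over the 45 genes) and fall in OE replicates 2 and 3 (-0.82 and -0.66).

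The calls were then counted along this axis. Of the 23 genes at or above the median GC content of all tested genes, 49.3%, 7 were called higher and the median log2 fold change was 0.24. Of the 22 genes below it, 3 were called higher (DKC1, POLR1B and UTP4) and the median was 0.17. Among all tested genes, 410 of 6153 at or above the median GC content and 165 of 6152 below it were called higher. After a loess correction of each library for GC content and length, 14 of the 45 genes were called higher, beside 12.2% of all tested genes, 10 at or above the median and 4 below it. These 14 hold all 10 genes called before correction, with WDR43, NOP14, IMP4 and RRP9 added. Without OE replicate 1, the 20 called genes likewise hold those 10, and 8 of the 20 lie below the median GC content. The median log2 fold change of the 22 genes below it was then 0.31 and that of the 23 others 0.23.

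**Figure D5:**
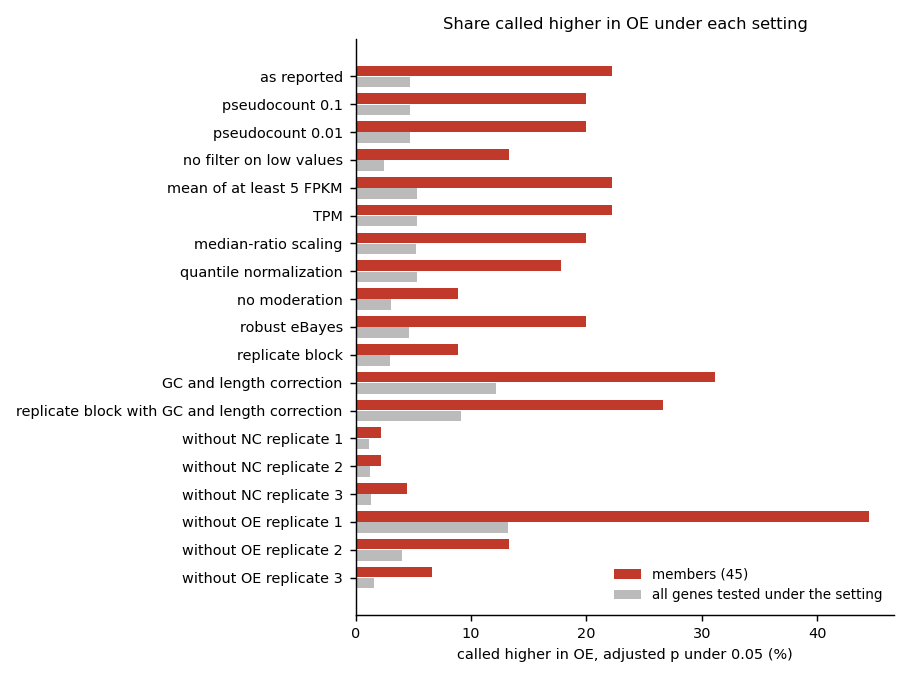
Bars give the share of the 45 genes (red) and of all tested genes (grey) called higher in OE at an adjusted p under 0.05 in the fit as reported and under each alternative. The red bar is longer than the grey one in every setting shown, from 2.22% beside 1.18% without NC replicate 1 to 44.4% beside 13.2% without OE replicate 1. It stands for 1 gene without NC replicate 1 or 2 and for 2 genes without NC replicate 3, which is not read as an excess. All settings draw on the same 6 libraries.

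IMP3, a U3 snoRNP protein (chr15:75639085-75648706, - strand), stood apart from the others. It measured 54.0, 18.1 and 5.01 FPKM in NC and 77.4, 20.7 and 3.17 FPKM in OE. The highest library was 10.8 times the lowest in NC and 24.4 times in OE, and the log2 fold change of 0.06 ± 1.13 did not pass (adjusted p = 0.98). A log2 range of at least 2 within both groups was found in 7 of the 12322 tested genes, and IMP3 was the one among the 45. It overlaps SNX33 on the other strand and has 2 pseudogenes that carry its name, and the part of either in its spread was not tested. Its fold change turned negative without NC replicate 3 (-0.75), without OE replicate 1 (-0.96) and without OE replicate 2 (-0.03).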

How the data were processed

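The authors extracted total RNA from DU145 cells, selected poly(A) RNA, made paired-end Illumina NovaSeq libraries and deposited 1 table of FPKM values with 2 decimals, with 1 column for each of the 6 libraries. The submitters' processing notes name the genome build hg38. The aligner, counting program and annotation are not given in the sources used here. Samples were grouped by their titles, and the number of unused sample columns was 0. Count models were not used because FPKM are no counts.

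Values were taken to log2(FPKM + 1), so fold changes of low genes are understated. The test was limma (3.58.1, R 4.3.3), with a trended eBayes step and group as the sole term, two-sided, over the 12322 genes whose mean reached 1 FPKM. Benjamini-Hochberg adjustment ran over this whole set. The limma fit was tested on simulated data with larger changes than those reported here, as a check of the code. That run does not show how well changes of the size reported here are found. Depth was read as the step that made FPKM times length whole in genes with a single transcript under 800 nt (93.0% to 98.6% of 59 to 83 values within 0.15 of a step, where 30% would be by chance). Coordinates, overlaps, transcript length and GC content of the longest coding transcript come from GENCODE release 29 on GRCh38, and promoters from RefSeq on GRCh38.p14. POLR1F, POLR1G and POLR1H of the wider list are in the table under older symbols.

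Some marker genes are not reported here. The 45 genes and all lists were chosen with earlier results of these data known. Library values and full statistics were given for each gene with an adjusted p under 0.05, the gene with the highest mean FPKM of each role, the gene with the largest standard deviation among the OE libraries, MYC and MAX, and, of the wider list, the 4 largest rises and falls past the threshold were named. NOP58, NPM1, DDX21, BOP1, RRP9, POLR1A, MRTO4 and other genes with full values were added after their values had been seen. Alternatives were pseudocounts of 0.1 and 0.01, no filter on level or a stricter one (5 FPKM), rescaling to TPM, by quantiles or by median ratios, eBayes left out or made robust, replicate as a block, a loess correction (span 0.3) for GC content and length with and without that block, and leaving out each library. For ribosomal proteins they were added after seeing the data.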

Additional observations from a re-analysis of the deposited data

How the results depend on the processing

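The 10 called genes kept a positive fold change in all 180 values under the alternatives, and 60 of these no longer passed an adjusted p of 0.05. NOP16 passed in 17 of 18 alternatives, PES1 and RRS1 in 16, RRP12 in 12, BYSL, NOB1 and POLR1B in 11, NOP56 and DKC1 in 9 and UTP4 in 8. Of the 630 values of the other 35 genes, 17 newly passed and 30 changed sign. The number of the 45 called higher was 6 with no filter (13.3%, beside 2.43% of all tested genes), 4 with no moderation (8.89%, beside 3.09%), and 1 to 20 with 1 library left out, and their median ranged from 0.13 to 0.28 with 1 library left out. The cause of these differences was not tested.

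The replicate numbers are shared by both groups, and same-numbered libraries had correlations of their deviations of 0.07, 0.01 and 0.06. Pairs with unlike numbers ran from -0.07 to 0.04. The labels do not say whether equal numbers mean paired libraries, and these low values cannot settle it. With the replicate block 4 of the 45 genes were called higher (8.89%, beside 2.95% of all tested genes), with the block and the GC and length correction 12 (26.7%, beside 9.15%).

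For the wider list, the number called higher was 3 with the block, 31 with the GC and length correction, 20 with both, and 0 to 53 with 1 library left out. With the block this share, 2.16%, was below that of all tested genes, 2.95%, and with the correction it was 22.3% beside 12.2%. The number called lower was 3 with the correction, 2 with both, and 0 to 4 with 1 library left out. For ribosomal proteins, the number called higher was 2 with no filter, 14 with TPM, 4 with no moderation, 1 with the block, 22 with the correction, 19 with both, and 0 to 31 with 1 library left out. With the block the share was 1.27% beside 2.95% of all tested genes, with no filter 2.53% beside 2.43%, and with the correction 27.8% beside 12.2%. The number called lower was 1 with quantile normalization, with the correction and with both, and 0 to 1 with 1 library left out. Their median was 0.18 with median-ratio scaling and 0.080 with quantile normalization.

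The sign changes concerned genes that were not called, most of them with estimates near 0. With 1 library left out, the log2 fold change ranged from -0.026 to 0.54 in NOP58, -0.012 to 0.065 in POLR1A, -0.26 to 0.11 in NPM1, -0.35 to 0.16 in LYAR, -0.19 to 0.34 in UTP15, -0.23 to 0.11 in UTP20, -0.013 to 0.15 in NOC4L, -0.96 to 1.16 in IMP3, -0.092 to 0.087 in DDX10, -0.071 to 0.15 in PNO1, -0.027 to 0.20 in BOP1, -0.12 to 0.31 in NOC3L, -0.15 to 0.32 in GNL3 and -0.16 to 0.24 in DDX18. With quantile normalization it was -0.018 in NHP2, 0.069 in DDX10 and 0.0036 in DDX18. With median-ratio scaling it was 0.011 in DDX10 and 0.039 in DDX18, with TPM 0.016 in DDX18, and with the GC and length correction, with or without the block, 0.0091 in DDX10 and 0.032 in DDX18.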

Other observations

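Of 12 genes of the MYC and MXD network, 11 were tested and 1 was called higher in OE (9.09%, beside 4.69% of all tested genes). With 1 gene called, this is not read as an excess. MXD1, which pairs with MAX and represses MYC targets, measured 3.65, 3.55 and 3.38 FPKM in NC and 5.16, 6.70 and 6.30 FPKM in OE. The groups did not overlap, and the log2 fold change was 0.63 ± 0.12 (adjusted p = 0.019). MXD1 was named after its values had been seen.

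IMP3 shared its wide range within both groups with 6 other tested genes, listed after their values were seen, of which ABHD14A-ACY1, CHURC1-FNTB and TVP23C-CDRT4 carry the joined names of neighboring genes. CHURC1-FNTB measured 1.30, 0 and 10.5 FPKM in NC and 0.41, 3.50 and 0.04 FPKM in OE. IMP3 reached 77.4 FPKM, whereas the other 6 did not exceed 15.3 FPKM in any library.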
